A study of Mus musculus with 10 samples.

Results

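The small leucine-rich proteoglycans were examined in RNA sequencing libraries from mouse knee cartilage, through the 10 genes Bgn, Dcn, Aspn, Fmod, Lum, Prelp, Omd, Kera, Ogn and Epyc. They were chosen by gene symbol and not by a rule on measured values, though with earlier results of these data known. They are 10 of the 35705 genes to which transcript values could be summed. Each library came from the medial knee cartilage cap of 1 mouse, with 5 wild-type control mice and 5 Mir324-null mice, which lack the microRNA gene Mir324. Samples were labelled as articular cartilage and as chondrocytes, without treatment. Strain, age, sex, litter and the way the null allele was made are not given in the sources used here. Abundance was in TPM, the length-adjusted share of a library that falls to each transcript, so read depth is unknown, and the errors given are those of the spread between 5 mice of a genotype. A gene was tested when its mean over the 10 libraries was at least 1 TPM, which 13841 genes and 8 of the 10 members reached.

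Small leucine-rich proteoglycans are secreted proteins with a short core of leucine-rich repeats that bind collagen fibrils, set fibril diameter and spacing, and hold growth factors in the matrix. Biglycan, decorin and asporin form class I, fibromodulin, lumican, PRELP, osteomodulin and keratocan form class II, and osteoglycin and epiphycan form class III. Biglycan and decorin carry chondroitin or dermatan sulfate chains, and fibromodulin, lumican and keratocan can carry keratan sulfate. In joints they are found in articular cartilage, meniscus, tendon and bone, and epiphycan is known from growth plate cartilage.

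The sequence feature that sorts the family into these classes is a set of 4 cysteines ahead of the leucine-rich repeats, and it is shown because it was found in all 10 members with class-specific spacing. The lines below give the coding strand from the first to the third cysteine codon, 5′ to 3′, read from the GENCODE M21 transcript with the highest mean TPM in these libraries, with cysteine codons in capitals.
Bgn: TGTcctttcggtTGCcacTGC
Dcn: TGCccctaccgaTGCcagTGT
Aspn: TGTccatttgggTGCcaaTGT
Fmod: TGTccccaagaaTGCgacTGT
Lum: TGTgcaccagaaTGTaacTGC
Prelp: TGTccacgggaaTGCtacTGC
Omd: TGTgctaaggaaTGCttcTGT
Kera: TGTcccagagaaTGCttcTGT
Ogn: TGCctgttgTGTgtcTGC
Epyc: TGTctcctgTGTactTGT
In classes I and II, 3 codons separated the first 2 cysteines, and in class III 2 codons did. The third and the fourth cysteine were separated by 6 codons in classes I and III and by 9 in class II. The search was for cysteine codons (TGT or TGC) in frame with gaps of 2 or 3, then 1, then 6 to 9 codons, with no cysteine in between, and it matched once in each member. The same spacing occurred in 105 of 12054 tested genes with a complete coding sequence (0.871%). In GRCm38 the windows lie at chrX:73490979-73490999 (Bgn), chr10:97483507-97483527 (Dcn), chr13:49551865-49551885 (Aspn), chr1:134040449-134040469 (Fmod), chr10:97568353-97568373 (Lum), chr1:133915181-133915201 (Prelp, minus strand), chr13:49589659-49589679 (Omd), chr10:97608907-97608927 (Kera), chr13:49615566-49615583 (Ogn) and chr10:97674688-97674705 (Epyc).

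Mir324 gives 2 mature strands, printed here from RefSeq (GRCm38.p6) because their seeds, bases 2 to 8 in capitals, decide which messages can pair with them.
miR-324-5p: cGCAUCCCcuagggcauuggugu
miR-324-3p: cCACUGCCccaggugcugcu
The seed complement of miR-324-5p, GGGATGC, was in the 3′ UTR of 0 of the 10 members, and in 7.27% of the 3′ UTRs of 11956 tested genes. That of miR-324-3p, GGCAGTG, was in 1 member, Bgn, and in 13.1% of tested genes. The Bgn site begins at the second base of its 3′ UTR, at chrX:73494798-73494804 on the plus strand.
Bgn site with its flanks: aGGCAGTGgttg
Shorter matches of 6 bases were found in Kera and Epyc for miR-324-5p (GGATGC, in 22.2% of tested genes) and in Aspn for miR-324-3p (GCAGTG). Counted also within 7-base matches, GCAGTG was in 2 members, Aspn and Bgn, and in 33.4% of tested genes. The transcribed strand was searched, in the coding transcript of each gene with the highest mean TPM. These are matches of letters and not shown sites.

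One wild-type library was singled out after the values of the members were seen. Wild-type replicate 1 had the highest TPM of all 10 libraries for Bgn, Dcn, Fmod, Lum and Prelp, and among wild-type mice the highest summed level of the chondrocyte markers, at 1182 TPM, where the wild-type median was 486 TPM and null mice had 334 to 658 TPM. By Dixon's criterion, described at the end, this library lay apart only for Fmod and for the ratio of Lum to Fmod. Differences of the members between genotypes, their ratios and the medians of the gene lists are also given without it, a choice made with the values known. Levels of Mir324 itself were not analysed here, and the genotypes are as labelled. Chondrocyte markers were present, with 9 of 12 at a mean of at least 1 TPM, and the most abundant, Comp, had a wild-type mean of 235 TPM. The other 3, Matn1, Matn3 and Col9a1, were below 1 TPM, at wild-type means of 0.169, 0.156 and 0.567 TPM. Markers of other tissues were also present: 10 osteoblast and osteocyte markers summed to between 4253 and 11025 TPM in wild-type libraries, and to between 2587 and 4894 TPM in null ones, and haemoglobin genes held 11.2% to 26.1% of a library. In such mixed tissue, fewer cells of a type and less RNA per cell cannot be told apart.

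Dcn and Bgn were the most abundant members, at ranks 154 and 223 of the 13841 genes tested by mean TPM, and together made up 82.8% to 87.4% of the members' TPM in a library. Lum (rank 1158) and Prelp (rank 1709) followed at a mean of 96.8 and 67.5 TPM over the 10 libraries, then Fmod, Omd and Ogn at 29.5, 25.0 and 13.0 TPM and Aspn at 6.07 TPM. Between mice, the lowest Bgn value (321 TPM) lay above the highest Lum value (158 TPM), while the ranges of all other neighbours in this order, from Dcn with Bgn to Ogn with Aspn, overlapped. Kera and Epyc were at or near 0. Summed, the 10 genes took 0.181% ± 0.0810 of a wild-type library and 0.142% ± 0.0419 of a null library (mean ± SD, n = 5 each), a difference of -0.0386 percentage points that was -0.00592 without wild-type replicate 1.

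**Figure D1:**
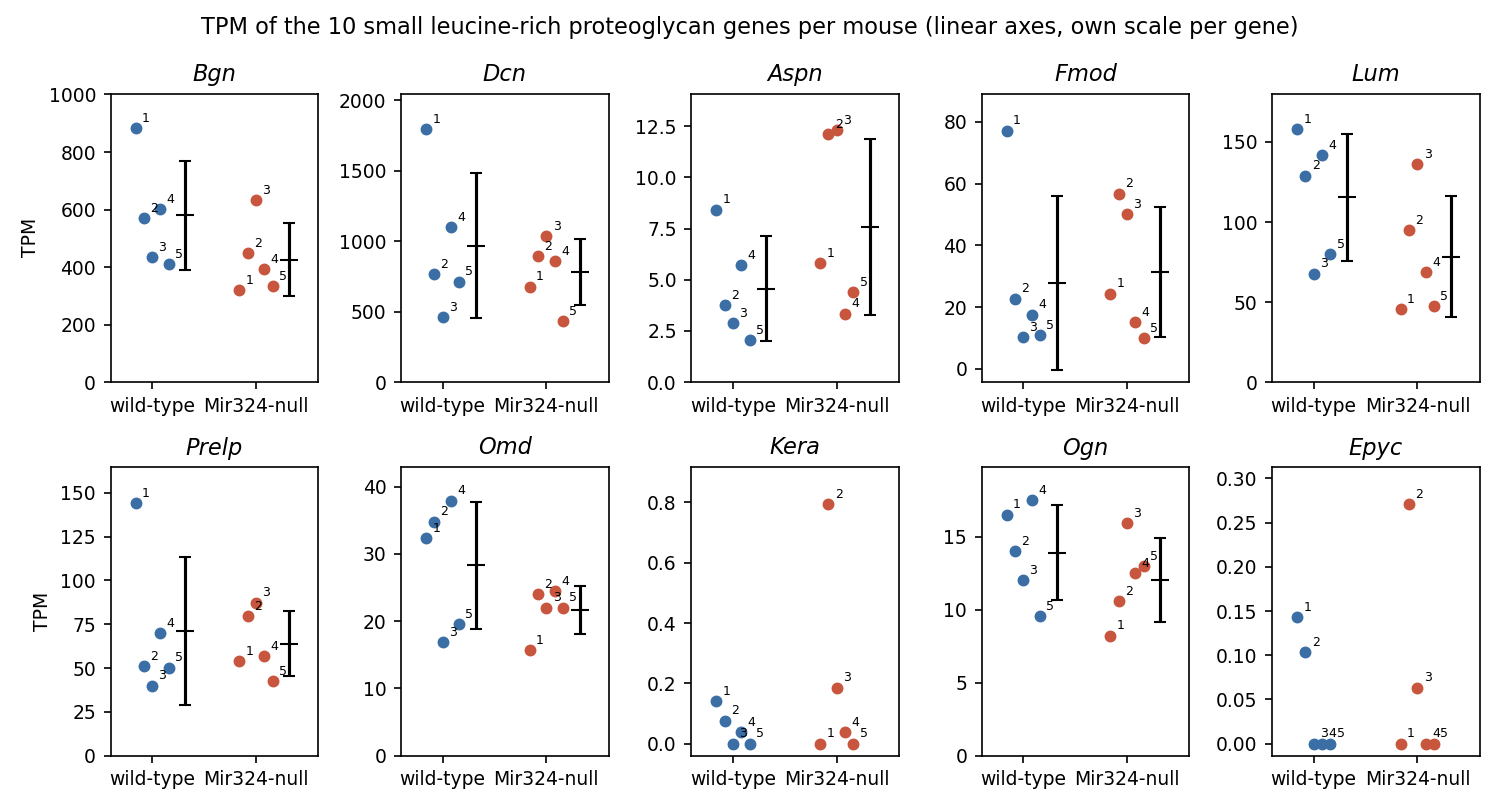
TPM of each member (vertical axes, linear, own scale per gene) in 5 wild-type (blue) and 5 Mir324-null mice (red), with points numbered by replicate and bars at mean ± SD for the 8 members tested, without bars for Kera and Epyc. Wild-type replicate 1 is the highest point for Bgn, Dcn, Fmod, Lum and Prelp, and the genotypes overlap in every panel.

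In the comparison of genotypes, which asks whether loss of the microRNA goes with other levels of these matrix genes, 0 of the 8 members tested passed (limma, Benjamini-Hochberg adjusted p under 0.05), with a smallest adjusted p of 0.50. Across all genes, 0 of 13841 did (0%). At an unadjusted p under 0.05 there were 0 members and 11.6% of all genes, and members whose genotypes did not overlap numbered 0, against 1.94% of all genes (1.06% lower and 0.881% higher in null mice). Estimates were below 0 for 6 members and above 0 for 2, with a median of -0.20 on the log2(TPM + 1) scale, where all genes had a median of -0.045 and 60.0% lay below 0. The split was 5 and 3 after median ratio scaling and after rescaling without the haemoglobin genes, and 4 and 4 with a median of -0.04 without wild-type replicate 1. With 1 added to each TPM, differences of low genes such as Aspn come out smaller than on the TPM scale.

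**Figure D2:**
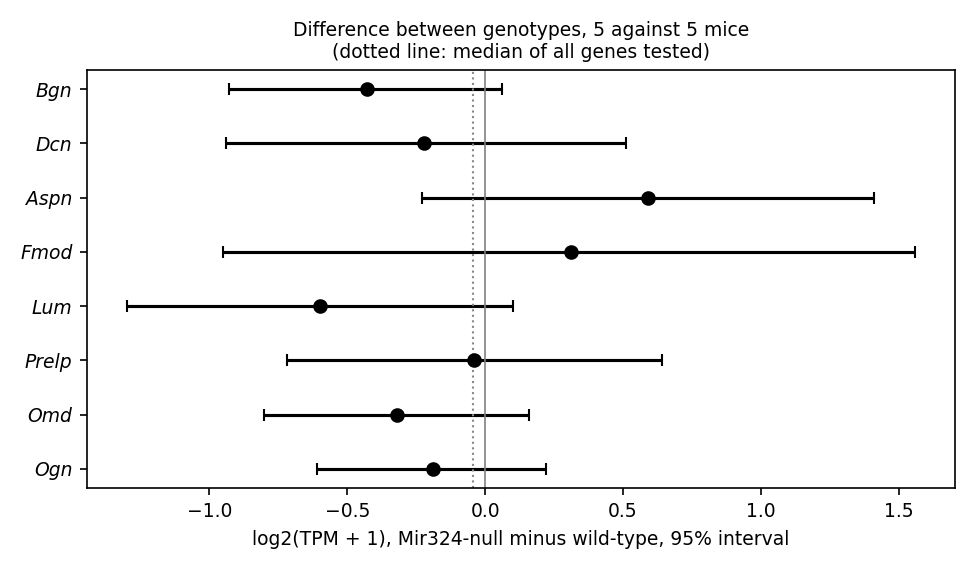
Difference in log2(TPM + 1), Mir324-null minus wild-type (horizontal axis), for the 8 members tested, with points at the limma estimate, bars at its 95% interval and a dotted line at the median of all genes tested. All 8 intervals include 0, and that of Fmod, from -0.95 to 1.56, is the widest.

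Among class I members, Bgn (ENSMUSG00000031375, chrX:73483602-73495933), which encodes biglycan, a matrix proteoglycan of bone and cartilage, was more even between mice than Dcn. Its wild-type values were 883, 571, 434, 602 and 409 TPM in replicates 1 to 5, and its null values 321, 449, 632, 393 and 335 TPM. Of the 5 null mice, 4 lay below the wild-type mean, while null replicate 3 lay above 4 of the wild-type mice, so the genotypes overlapped. Means were 580 ± 189 and 426 ± 126 TPM (SD, n = 5), a log2 difference of -0.43 with a 95% interval of -0.93 to 0.06 (limma adjusted p = 0.50) and -0.27 without wild-type replicate 1.

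Dcn (ENSMUSG00000019929, chr10:97479609-97518143) encodes decorin, which binds collagen fibrils and TGF-β. It stood at 1795, 767, 464, 1099 and 713 TPM in wild-type replicates 1 to 5 and at 678, 895, 1037, 860 and 435 TPM in null replicates 1 to 5. The highest value was that of wild-type replicate 1, and the null mice fell within the wild-type range except replicate 5, which was the lowest of all 10. Means were 968 ± 515 and 781 ± 232 TPM (SD, n = 5), with a log2 difference of -0.22 and an interval of -0.94 to 0.51 (limma adjusted p = 0.877). Without wild-type replicate 1 the sign turned, to 0.04.

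Aspn (ENSMUSG00000021388, chr13:49544443-49567565) encodes asporin, a class I protein without a glycosaminoglycan chain that binds TGF-β. It had 8.43, 3.77, 2.88, 5.70 and 2.05 TPM in wild-type and 5.81, 12.1, 12.3, 3.35 and 4.38 TPM in null replicates 1 to 5. Null replicates 2 and 3 were the highest of the 10 mice, and the other 3 null mice lay inside the wild-type range. Its estimate was the largest of those above 0, a log2 difference of 0.59 with an interval of -0.23 to 1.41 (limma adjusted p = 0.598). Without wild-type replicate 1 it was 0.81 (limma unadjusted p = 0.0471, adjusted p = 0.595).

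Among class II members, Fmod (ENSMUSG00000041559, chr1:134037254-134048277) encodes fibromodulin, which shares a binding region on collagen fibrils with lumican. It varied most between mice, at 77.2, 22.8, 10.2, 17.6 and 10.9 TPM in wild-type and 24.4, 56.8, 50.2, 15.2 and 9.97 TPM in null replicates 1 to 5. Wild-type replicate 1 and null replicates 2 and 3 stood above the other 7 mice, and the highest library was 7.75 times the lowest. Means were 27.7 ± 28.1 and 31.3 ± 21.0 TPM (SD, n = 5), a log2 difference of 0.31 (limma adjusted p = 0.909) that was 0.77 without wild-type replicate 1 and 0.03 without null replicate 2.

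Lum (ENSMUSG00000036446, chr10:97565128-97572703) encodes lumican, a keratan sulfate proteoglycan of cornea and connective tissue. Its values were 158, 129, 67.8, 142 and 80.0 TPM in wild-type and 45.4, 95, 136, 68.6 and 47.3 TPM in null replicates 1 to 5. Null replicates 1 and 5 lay below every wild-type mouse, whereas null replicate 3 lay above 3 of them. The log2 difference of -0.60 was the largest of those below 0 and had an interval of -1.30 to 0.10 (limma adjusted p = 0.509, -0.47 without wild-type replicate 1).

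Prelp (ENSMUSG00000041577, chr1:133910304-133921414, minus strand) encodes a protein with a basic amino-terminal stretch that binds heparan sulfate as well as collagen. It had 144, 50.9, 39.9, 70.0 and 50.3 TPM in wild-type and 53.9, 79.6, 87.3, 56.6 and 42.6 TPM in null replicates 1 to 5. Wild-type replicate 1 was the highest, null replicates 3 and 2 came next, and wild-type replicate 3 was the lowest, so the null mice lay inside the wild-type range. The log2 difference was -0.04 with an interval of -0.72 to 0.64 (limma adjusted p = 0.980), and it was above 0 without wild-type replicate 1 (0.25), after median ratio scaling (0.02) and after rescaling without the haemoglobin genes (0.05).

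Omd (ENSMUSG00000048368, chr13:49582462-49592822) encodes osteomodulin, also called osteoadherin, which is made by osteoblasts and binds hydroxyapatite. It had 32.3, 34.8, 16.9, 37.9 and 19.6 TPM in wild-type and 15.7, 24.0, 22, 24.5 and 22 TPM in null replicates 1 to 5. All 5 null mice lay below the wild-type mean, but 2 of the wild-type mice, replicates 3 and 5, were lower than 4 of the null mice. The log2 difference was -0.32 with an interval of -0.80 to 0.16 (limma adjusted p = 0.633, -0.26 without wild-type replicate 1).

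Kera (ENSMUSG00000019932, chr10:97606879-97613692) encodes keratocan, a proteoglycan best known from cornea. It was listed at 0 in wild-type replicates 3 and 5 and in null replicates 1 and 5, and at 0.140, 0.0764 and 0.0378 TPM in wild-type replicates 1, 2 and 4. Null replicate 2 had 0.794 TPM, the highest value, beside 0.186 and 0.0374 TPM in null replicates 3 and 4. With a mean of 0.127 TPM it was below the level tested.

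Of the class III members, Ogn (ENSMUSG00000021390, chr13:49608046-49624501) encodes osteoglycin, also called mimecan. Its values were 16.5, 14.0, 12, 17.5 and 9.53 TPM in wild-type and 8.21, 10.6, 15.9, 12.5 and 13.0 TPM in null replicates 1 to 5. Both genotypes covered almost the same range, and it was the member with the smallest spread. The log2 difference was -0.19 with an interval of -0.61 to 0.22 (limma adjusted p = 0.777, -0.13 without wild-type replicate 1). Epyc (ENSMUSG00000019936, chr10:97644068-97682454), the gene of epiphycan, was listed at 0 in 6 libraries and had 0.143 and 0.104 TPM in wild-type replicates 1 and 2 and 0.271 and 0.0634 TPM in null replicates 2 and 3. It was not tested.

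Most members varied more between mice of one genotype than the typical gene did. The within-genotype SD of log2(TPM + 1) was 1.09 for Fmod, 0.692 for Aspn, 0.622 for Dcn and 0.602 for Lum, where the median over all genes tested was 0.240. Of the genes tested, 98.0% had a smaller SD than Fmod, 95.9% than Aspn and 94.8% than Dcn. Ogn was nearest to the typical gene, at 0.330, a value above that of 72.7% of genes. Prelp, Bgn and Omd lay between, at 0.583, 0.418 and 0.397.

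Levels of the members followed one another across the 10 mice. Pearson's r of log2(TPM + 1) was above 0 in all 28 pairs of the 8 members, with a median of 0.70 and a range of 0.20 to 0.95. It passed adjustment over the 28 pairs in 15 of them, and Spearman's rho in 11 (permutation tests, two-sided, 100000 permutations, Benjamini-Hochberg). The same was not computed for pairs of other genes, so whether this is particular to the members was not tested. The closest pair was Bgn and Lum, genes of different classes and chromosomes, with r = 0.95 (permutation p = 4.00e-05, adjusted 0.00112) and rho = 0.95 (permutation p = 0.000110, adjusted 0.00308). Leaving out the 2 libraries farthest from the median of Bgn, wild-type replicate 1 and null replicate 3, gave r = 0.98. With the same 2 left out, r of Bgn fell from 0.82 to 0.59 with Dcn and from 0.79 to 0.40 with Prelp. It went from 0.79 to 0.72 with Ogn and from 0.70 to 0.83 with Omd, the remaining pairs of Bgn that had passed by r.

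Fmod correlated with both Prelp and Aspn, and Dcn with Prelp, whereas r of Dcn and Aspn was 0.55 (permutation test, adjusted p = 0.142). For Dcn and Prelp r was 0.94 (permutation p = 1.00e-04, adjusted 0.00140) and rho 0.92 (permutation p = 0.000450, adjusted 0.00630), with r = 0.87 without the 2 farthest libraries. For Fmod and Prelp, which are neighbours on chromosome 1, r was 0.90 (permutation p = 0.000230, adjusted 0.00215) and rho 0.88 (permutation p = 0.00149, adjusted 0.0104), with r = 0.83 without the farthest 2. For Fmod and Aspn r was 0.87 (permutation p = 0.00159, adjusted 0.0111) and rho 0.79 (permutation p = 0.00921, adjusted 0.0368), with r = 0.85 without the farthest 2. Wild-type replicate 1 and null replicates 2 and 3 were the 3 highest libraries for each of Fmod, Prelp and Aspn. They were also among the highest for Col3a1, a collagen of fibrous tissue (161, 143 and 161 TPM). The same held for the chondrocyte marker Comp (487, 317 and 353 TPM). Summed chondrocyte markers were highest in wild-type replicate 1 (1182 TPM) among wild-type mice and in null replicate 3 (658 TPM) among null mice. So were the summed surface and synovial fibroblast markers (5176 and 2465 TPM). The summed tendon, ligament and meniscus markers were highest in wild-type replicate 1 (108 TPM) among wild-type mice and in null replicate 2 (71.2 TPM) among null mice. Skeletal muscle markers summed to 51.4 TPM in null replicate 2, where the null median was 19.3 TPM and the highest wild-type sum, in replicate 3, was 16.1 TPM. The part of any of these cell types in the correlation was not tested.

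Ogn and Omd, neighbours on chromosome 13, correlated with r = 0.77 (permutation p = 0.0101, adjusted 0.0283) and rho = 0.76 (permutation p = 0.0146, adjusted 0.0410), but r was 0.54 without the farthest 2 libraries. Their correlations with Fmod and Aspn did not pass: r was 0.29 for Fmod and Ogn (permutation p = 0.411, adjusted 0.426; rho = 0.21) and 0.20 for Aspn and Omd (permutation p = 0.571, adjusted 0.571; rho = 0.14), although Aspn lies next to Omd. Whether these correlations differ from one another was not tested. All members share each library's total, and the median r was 0.61 without wild-type replicate 1, 0.63 after median ratio scaling, 0.60 after quantile normalization and 0.67 after rescaling without the haemoglobin genes. Centred within genotype, the median r was 0.78.

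**Figure D3:**
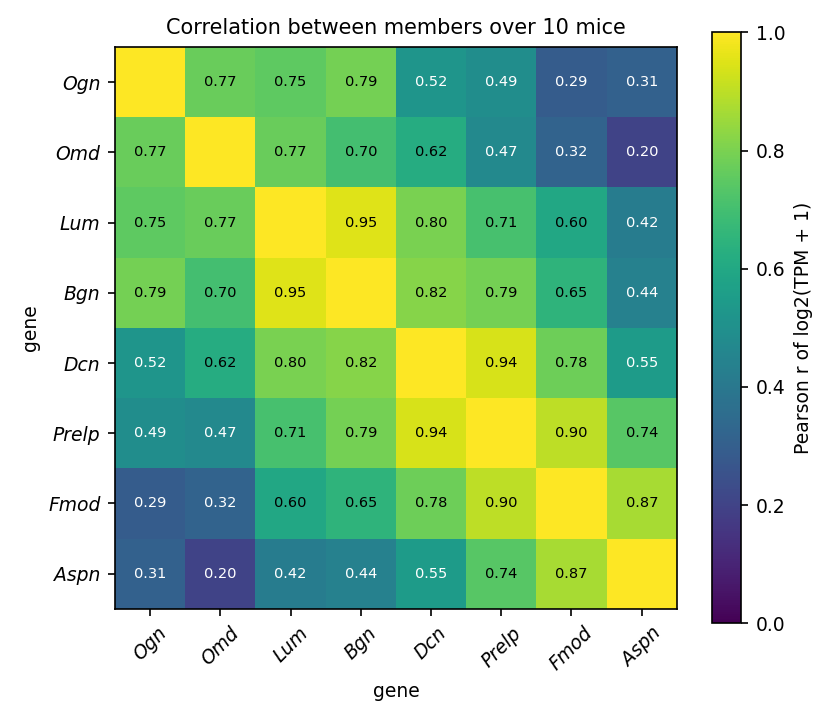
Pearson's r of log2(TPM + 1) over the 10 mice for each pair of the 8 members tested (both axes list genes; colour and number give r). Bgn and Lum (0.95), Dcn and Prelp (0.94) and Fmod and Prelp (0.90) have the highest values, while Ogn and Omd against Fmod and Aspn lie between 0.20 and 0.32.

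The non-member genes with the most similar profile were sought among 10325 genes averaging 5 TPM or more, by r centred within genotype over the 10 mice. As the highest of so many, these values are a description and carry no test. They were B3gnt9 for Bgn (r = 0.992, rho = 0.95), Pdgfrl for Dcn (0.988, rho 0.99), Slc29a1 for Fmod (0.991, rho 0.98) and Rtl8b for Lum (0.982, rho 0.95). For Prelp it was Lrp4 (r = 0.982, rho = 0.98), for Aspn Jagn1 (0.984, rho 0.94), for Ogn 2310022B05Rik (0.973, rho 0.95) and for Omd Thtpa (0.939, rho 0.88). Without the 2 libraries with the largest deviation of the member, r lay between 0.93 and 0.99.

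Most members lie in clusters of neighbouring genes whose levels were far apart. On chromosome 10, Dcn, Lum, Kera and Epyc stand in this order on the plus strand, with 46985 bases between Dcn and Lum, 34176 between Lum and Kera and 30376 between Kera and Epyc. Mean wild-type levels along that cluster were 968, 115, 0.0508 and 0.0495 TPM. On chromosome 13, Aspn, Omd and Ogn follow one another with gaps of 14897 and 15224 bases, at wild-type means of 4.56, 28.3 and 13.9 TPM, with the related gene Ecm2 ahead of Aspn at 7.92 TPM. Cenpp, on the opposite strand, spans all 3 and averaged 14.5 TPM in wild-type mice, but shares only 7 exonic bases with Aspn and 0 with Omd and Ogn. Whether the quantification used strand is not given in the sources used here. On chromosome 1, Prelp and Fmod are 115840 bases apart on opposite strands. Bgn, on the X chromosome, has no member beside it.

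**Figure D4:**
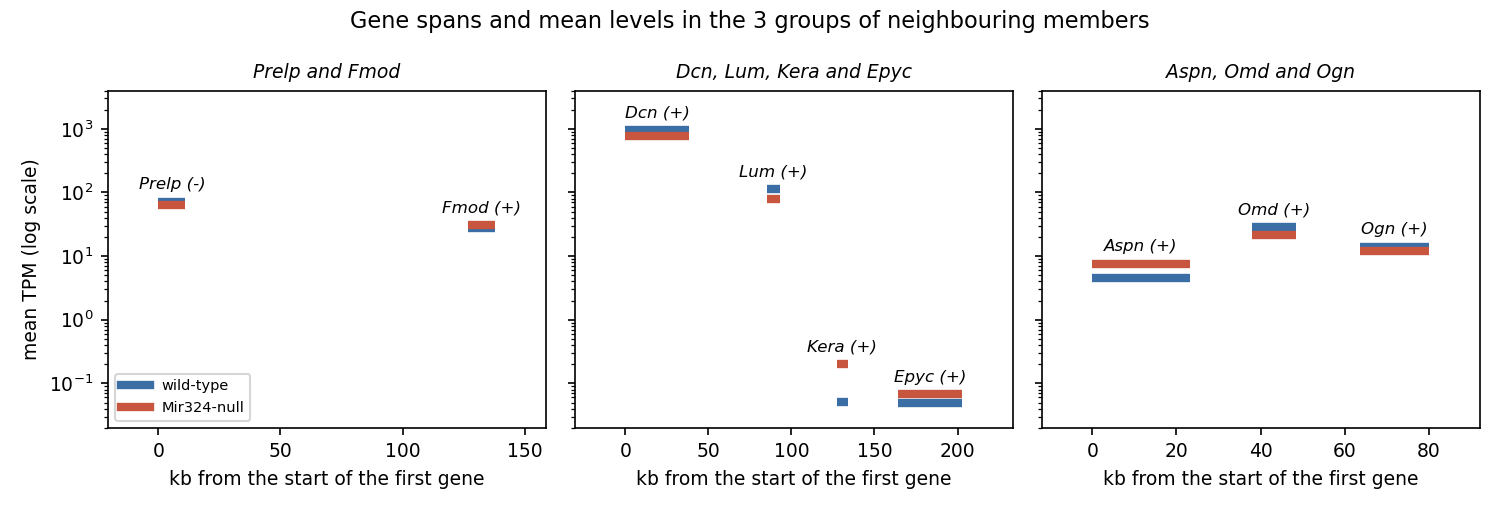
Span of each gene (horizontal axis, kb from the start of the first gene) and its mean TPM (vertical axis, log scale) in wild-type (blue) and Mir324-null mice (red) in the 3 groups of neighbouring members, with the strand in brackets. On chromosome 10 the level falls from Dcn at 968 TPM to Epyc at 0.0495 TPM in wild-type mice.

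Transcript values showed which forms of each gene were measured. Bgn-201, the full coding transcript, held 81.0% ± 3.10 of Bgn in wild-type and 80.1% ± 1.31 in null mice (SD, n = 5). Bgn-208, a non-coding transcript of 2 exons and 548 bases in the last part of the gene, held 17.8% ± 3.06 and 18.7% ± 1.35. Dcn was divided between 2 coding transcripts of 1758 bases with different starts (97479609 and 97482367 on chromosome 10), Dcn-201 at 63.5% ± 4.98 and 59.5% ± 5.09 and Dcn-202 at 36.3% ± 4.86 and 40.1% ± 5.31. Omd-202 held 75.0% ± 7.87 of Omd in wild-type and 84.2% ± 15.0 in null mice, with Omd-201 making up the rest. Aspn-201 ranged from 3.85% to 100% of Aspn between mice, so its division was not stable at this level. The share of Dcn-201, Bgn-208, Omd-202 and Aspn-201 did not pass the test between genotypes in exact permutation tests (two-sided, p = 0.254 to 0.556, adjusted over the 4 shares 0.529 to 0.556). Without wild-type replicate 1 the exact permutation p was 0.159 to 0.373 and the adjusted p 0.243 to 0.373. Shares among overlapping transcripts are estimates of the quantification program.

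Ratios of 2 members within a library, taken as differences of log2(TPM + 1), were compared for 4 pairs. The log2 ratio of Lum to Fmod was 1.02, 2.45, 2.62, 2.94 and 2.77 in wild-type and 0.87, 0.73, 1.42, 2.10 and 2.14 in null replicates 1 to 5. All 5 null mice lay below the wild-type mean and below 4 of the 5 wild-type mice, while wild-type replicate 1 lay among the null mice. The difference of -0.91 did not pass (exact permutation p = 0.0794, adjusted over 4 ratios 0.159), and without wild-type replicate 1 it was -1.24 (exact permutation p = 0.0238, adjusted 0.0952). Lumican and fibromodulin are the pair that share a collagen binding region.

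The log2 ratio of Ogn to Aspn was 0.90, 1.65, 1.74, 1.47 and 1.79 in wild-type and 0.44, -0.17, 0.35, 1.63 and 1.37 in null replicates 1 to 5. Null replicates 1, 2 and 3 lay below every wild-type mouse and the other 2 within their range. Its difference was -0.78 (exact permutation p = 0.0635, adjusted 0.159), and -0.94 without wild-type replicate 1 (exact permutation p = 0.0635, adjusted 0.127). Dcn to Bgn differed by 0.21 and Prelp to Fmod by -0.34 (exact permutation p = 0.349 and adjusted 0.349 for each). Without wild-type replicate 1 these were 0.31 and -0.52 (exact permutation p = 0.214 and adjusted 0.214 for each). Over all 28 pairs of members, a comparison added after the values were seen, 3 had an unadjusted exact permutation p under 0.05 and 0 an adjusted one, with a smallest adjusted p of 0.222. All 3 were ratios to Aspn, namely those of Lum (-1.19), Bgn (-1.02) and Prelp (-0.63). For Lum to Aspn the wild-type mice lay at 4.08 to 4.77 and the null mice at 2.77 to 4.00 on the log2 scale, without overlap. Without wild-type replicate 1, 6 of the 28 pairs had an unadjusted exact permutation p under 0.05 and 0 an adjusted one (smallest 0.133), and the ratio of Prelp to Aspn (-0.56, exact permutation p = 0.0873) was no longer among them.

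**Figure D5:**
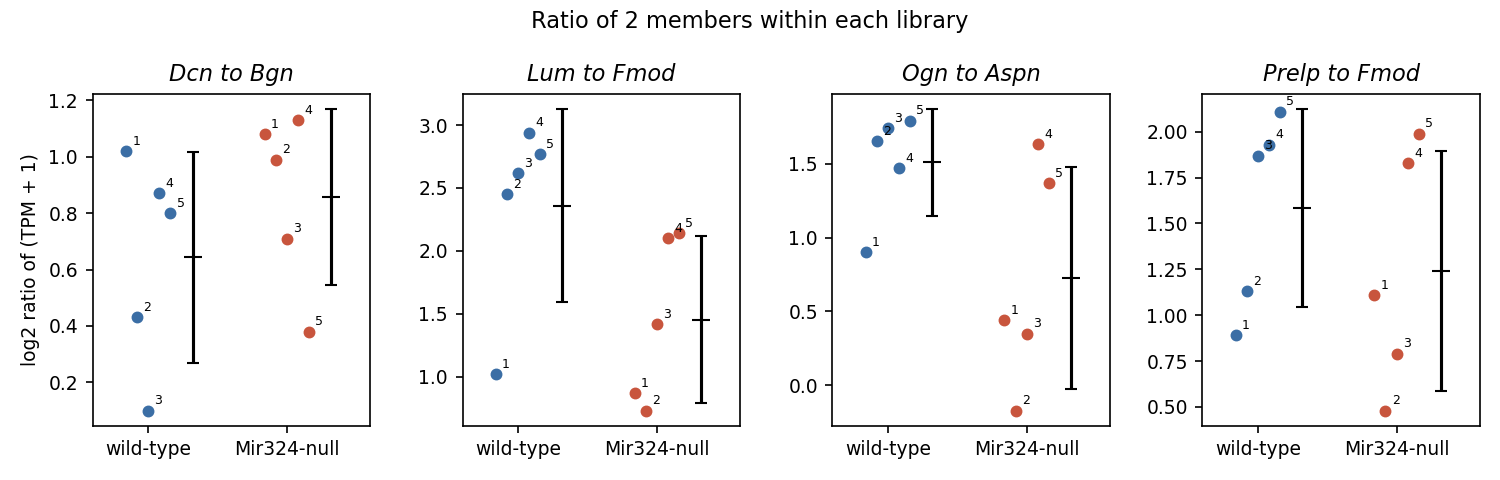
log2 ratio of (TPM + 1) of 2 members within each library (vertical axes, own scale per pair) in 5 wild-type (blue) and 5 Mir324-null mice (red), numbered by replicate, with bars at mean ± SD. For Lum to Fmod the null mice lie at 0.73 to 2.14, below 4 of the 5 wild-type mice.

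Other genes of the family and its pathway were described by their counts in the same fit, in which 0 genes of any list had an adjusted p under 0.05, so that names below carry values and no call. Of 8 further leucine-rich proteoglycan genes, 6 were tested, 5 lower and 1 higher in null mice, with a median of -0.35 that was -0.20 without wild-type replicate 1. Chad, the gene of chondroadherin, a cartilage protein that binds integrins, lay between Dcn and Bgn in level, with 761 ± 304 TPM in wild-type mice against 578 ± 54.4 TPM without Mir324 (SD, n = 5, log2 difference -0.31, limma adjusted p = 0.638). Tsku had the lowest difference (-0.55) and Ecm2 the highest (0.06). Nyx and Optc were below the level tested, and 1 gene, Chadl (-0.53, named after its value was seen), had an unadjusted limma p under 0.05, where 7.30% of all genes were lower and 4.28% higher at that level. That count was 0 without wild-type replicate 1 or 4 or null replicate 1, 4 or 5, and 2 without wild-type replicate 5 or null replicate 3.

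Of 14 collagens that the members bind or share fibrils with, 13 were tested and 11 were lower in null mice, with a median of -0.65. Over all genes tested, 60.0% were lower, and 7.30% were lower and 4.28% higher at an unadjusted limma p under 0.05. At that level 6 of the collagens were lower and 1 higher, and these 7 became 5 without wild-type replicate 1. They became 4 when wild-type replicate 4, null replicate 1 or null replicate 5 was left out, or after rescaling without the haemoglobin genes. The median was -0.48 without wild-type replicate 1. Col1a2, a chain of type I collagen and the most abundant of the list, had 2211, 1098, 1468, 2122 and 1391 TPM in wild-type and 568, 947, 1361, 1092 and 518 TPM in null replicates 1 to 5. Its null mice all lay below the wild-type mean, and only null replicate 3 exceeded the lowest wild-type mouse (log2 difference -0.93, SE 0.281, limma adjusted p = 0.312). Col11a1, of cartilage fibrils, had the lowest difference (-0.95, limma adjusted p = 0.319). Col3a1, of fibrous and vascular tissue, had the highest (0.89, limma adjusted p = 0.687), with 161 TPM in both wild-type replicate 1 and null replicate 3. All 10 osteoblast and osteocyte markers were also lower, with a median of -0.88 and 8 at an unadjusted limma p under 0.05, which became -0.66 and 4 without wild-type replicate 1. All 6 osteoclast markers tested were lower, with a median of -0.97 and 6 at that level (-0.89 and 4 without wild-type replicate 1), and 8 of 9 chondrocyte markers, with a median of -0.66 and 6 at that level (-0.49 and 4 without it). All 7 erythroid markers were higher, with a median of 0.44 and 4 at that level (0.35 and 2 without it), although after quantile normalization 6 were higher. Of surface and synovial fibroblast markers, 5 were higher and 3 lower (median 0.23, 0 at that level). Tendon, ligament and meniscus markers had 3 higher and 1 lower (median 0.08, 0 at that level). All 5 B lineage markers were lower (median -0.44, 3 at that level, and 1 without wild-type replicate 1). All 4 marrow stroma markers were lower (median -0.18, 1 at that level). Of neutrophil markers, 7 were lower (median -0.07, 0 at that level), but 4 after median ratio scaling. The 2 skeletal muscle markers tested were higher (median 0.41, 0 at that level). The part of these cell types in the values of the collagens and of the members was not tested.

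Lists of enzymes that build the chains on the core proteins had small median differences, although single genes reached -0.71. Over all genes tested, 60.0% were lower in null mice, 11.6% had an unadjusted limma p under 0.05 and 1.94% did not overlap between genotypes. Of 15 genes of chondroitin and dermatan chain synthesis, 15 were lower in null mice with a median of -0.18, but 11 were lower after rescaling without the haemoglobin genes and 12 without wild-type replicate 1. Csgalnact2, which starts chondroitin chains, was the most abundant, at 52.9 ± 8.22 and 42.2 ± 6.48 TPM (SD, n = 5, log2 difference -0.32, limma adjusted p = 0.387) and was the 1 gene with an unadjusted p under 0.05. That count was 0 without wild-type replicate 1 or null replicate 5, 4 without null replicate 2 or wild-type replicate 3, and 2 when wild-type replicate 2 was left out. The median was -0.16 without wild-type replicate 1 and -0.27 without null replicate 2. Chpf had the lowest difference (-0.42) and Csgalnact1 the highest (-0.05). Of 13 genes of keratan sulfate and tyrosine sulfation, 9 were lower and 4 higher, which turned to 4 lower and 9 higher after median ratio scaling or rescaling without the haemoglobin genes, and 2 lower and 1 higher had an unadjusted limma p under 0.05. Its median was -0.02, and without wild-type replicate 1 the list had 7 lower and 6 higher. In that list Chst5, a sulfotransferase of keratan sulfate, had the lowest difference (-0.71, limma adjusted p = 0.360) with 20.4 TPM in wild-type replicate 1 against 4.73 to 10.5 TPM in all others. St3gal2, a sialyltransferase, had the highest, with all null mice (24.4 to 29.9 TPM) above all wild-type mice (18.6 to 24.0 TPM), a log2 difference of 0.28 (limma adjusted p = 0.342). Tpst2, which sulfates tyrosines such as those of fibromodulin and osteomodulin, was the most abundant, at 47.8 ± 3.93 and 48.0 ± 10.0 TPM (SD, n = 5).

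Among 10 proteases that can cut the members, 9 were tested, with 7 lower, 2 higher and a median of -0.49. Over all genes tested, 60.0% were lower, and 11.6% had an unadjusted limma p under 0.05 (7.30% lower and 4.28% higher). At that level 3 of the proteases were lower and 1 higher, 4 in all. These 4 became 7 without wild-type replicate 3, 5 without wild-type replicate 5 or null replicate 3, and 3 without wild-type replicate 1, 2 or 4 or null replicate 1, 4 or 5. The median was -0.31 without wild-type replicate 1 and -0.30 without null replicate 5. Mmp13, a collagenase of hypertrophic cartilage and bone, was the most abundant and had the lowest difference. It stood at 185, 174, 116, 218 and 116 TPM in wild-type and at 64.2, 108, 107, 43.6 and 51.5 TPM in null replicates 1 to 5, so that the genotypes did not overlap (log2 difference -1.15, SE 0.274, limma adjusted p = 0.277). Mmp3, which cleaves several proteoglycans, had the highest difference (0.79, limma adjusted p = 0.325), from 0.422 to 1.52 TPM in wild-type to 1.54 to 4.65 TPM in null mice, also without overlap. Genes without overlap made up 1.94% of all genes tested (1.06% lower and 0.881% higher in null mice). Of 17 growth factors and receptors that bind members, 14 were lower with a median of -0.19, and 2 of them had an unadjusted limma p under 0.05. The count was 1 without wild-type replicate 1 or 4 or null replicate 1, 4 or 5, and the median was -0.13 without wild-type replicate 1 and -0.10 without null replicate 5. After rescaling without the haemoglobin genes 12 were lower, with a median of -0.11. Tgfb1, a ligand of decorin, biglycan and asporin, was the most abundant, at 170 ± 11.1 and 171 ± 10.6 TPM (SD, n = 5, log2 difference 0.01), Ccn4, which binds biglycan and decorin, had the lowest difference (-0.87, limma adjusted p = 0.291) and Igf1r the highest (0.05).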

How the data were processed

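Values were taken from a single table in which the authors deposited TPM for every transcript and each of the 10 mice. Per the submitters' processing notes it was made with kallisto. They also name the human build GRCh38, while the identifiers are Ensembl mouse transcripts. The program's version and the transcript index are not given in the sources used here. Each column summed to 1000000, and TPM keeps no read count, so no count model or detection limit was used. Transcripts were matched without version to GENCODE M21 (GRCm38), which gave 115440 of 116912, and 0 columns belonged to other samples. Unmatched transcripts held 0.275% to 0.356% of a library. TPM was summed per gene and analysed as log2(TPM + 1).

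Genotypes were compared with limma 3.58.1 in R 4.3.3 (eBayes with a trend, two-sided, Benjamini-Hochberg over 13841 genes), with all 10 libraries and no covariate. Single values used an exact permutation test over all splits of the mice, whose smallest p is 0.00794. On simulated data with 200 genes changed by 1 on the log2 scale, 77.5% were recovered for this comparison of 13841 genes. Those genes were drawn at random from all genes tested, with noise independent between genes. Their rate does not hold for the members, whose within-genotype SD of 0.330 to 1.09 lay above the median of 0.240. Replicate numbers occur in both genotypes, but same-numbered mice deviated from their group means with correlations of only -0.144 to 0.0564. Genes outside the members were named by rule: the most abundant, highest and lowest difference of each list, the most similar profile per member, and the neighbours. Outside this rule, Matn1, Matn3 and Col9a1 were named as the chondrocyte markers below 1 TPM, and Chadl as the 1 gene of its list at an unadjusted p under 0.05, all after their values were seen. Members and lists were chosen with earlier results of these data known. Python 3.11.15, numpy 2.4.6, pandas 2.3.3, scipy 1.17.1 and matplotlib 3.10.9 were used.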

Additional observations from a re-analysis of the deposited data

Results flagged for a closer look

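In 26 groups of 5 mice (8 members, 4 ratios and the members' sum in each genotype), the highest or lowest mouse was compared with the range of its group by Dixon's criterion (0.71 for 5 samples), which chance exceeds in about 1 of 20 groups. It was exceeded in 3 groups. Fmod in wild-type replicate 1, at 77.2 TPM, lay apart from the other wild-type mice by 0.813 of the group's range. The log2 ratio of Lum to Fmod in the same library, 1.02, lay below the others by 0.745 of the range. Omd in Mir324-null replicate 1, at 15.7 TPM, lay below the other null mice by 0.720 of the range.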

How the results depend on the processing

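Over 19 alternatives, the 8 members tested gave 152 estimates, of which 146 kept their direction and 0 had an adjusted p under 0.05 in limma (smallest 0.250). The alternatives in the filter on low values, the replicate block and the eBayes trend leave each estimate as it was. They could not reverse a direction, so the 146 overstate how far it was tried. The estimate of Prelp turned to 0.02 after median ratio scaling and to 0.05 after rescaling without the haemoglobin genes. Leaving out 1 mouse at a time, it ranged from -0.20 to 0.25 and that of Dcn from -0.44 to 0.04, in both cases with the highest value without wild-type replicate 1. Members with an unadjusted p under 0.05 then numbered 0 to 2 and genes called across the transcriptome 0 to 1. Those members were Aspn without wild-type replicate 1, Lum and Omd without wild-type replicate 3, Bgn without wild-type replicate 5, and Bgn and Lum without null replicate 3. The fit with the replicate number as a block changed no call, with 0 members at an unadjusted p under 0.05, 0 genes called and 1168 genes at an unadjusted p under 0.05 where there were 1603 without the block. The 0 of 5 wild-type mice that correlated best with their own number give no hint of pairing. Among genes at an unadjusted p under 0.05, 63.1% were lower in null mice, and 48.5% after median ratio scaling, 51.2% after quantile normalization and 32.1% after rescaling without the haemoglobin genes. Adjusted p-values of the 4 ratios stayed above 0.05 in every leave-one-out. List medians moved as well, that of the collagens from -0.84 to -0.48 and that of the proteases from -0.71 to -0.30. The median of keratan sulfate and tyrosine sulfation ranged from -0.10 to 0.05, and those of the other lists stayed below 0. Depth is unknown, so whether Kera and Epyc could have been detected at a higher depth was not tested.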
